A study of Bos taurus with 12 samples.

Results

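The respiratory chain and the mitochondrial ATP synthase were followed through 87 genes in bovine corpus luteum, the gland of the ovary that secretes progesterone. The genes were taken from the array by symbol, current or older: those beginning NDUFA, NDUFB, NDUFC, NDUFS, NDUFV, UQCR, ATP5 or COX with a digit, with SDHA to SDHD and their like-named partners, CYC1 and CYCS. They were carried by 91 probes of 15208 on the array, and all 87 were among the 12315 genes tested. Of these, 78 encode structural subunits or cytochrome c: 37 of complex I, 4 of complex II, 7 of complex III, 14 of complex IV, 15 of complex V and the electron carrier CYCS. The other 9 encode assembly factors or regulators whose symbols share the same letters, and they were counted apart. No subunit encoded by the mitochondrial genome was found among the named probes, so the values describe nuclear transcripts.

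Japanese-Black cows gave 1 corpus luteum each, 4 per group: pregnant cows on day 18 of gestation (P18), pregnant cows on day 15 of gestation (P15), and non-pregnant cows on cycle day 15 (NP15). Insemination counted as day 1. The glands were collected at slaughter from cows of the institute's ranch, and the labels name no treatment. RNA of the whole gland was labelled with Cy3 and hybridised to 1-colour Agilent arrays, 1 array per cow. A level here is the log2 of the processed spot intensity minus that array's 75th percentile, and a change is a difference of 2 group means of such levels. In whole tissue, fewer cells of a type and less RNA per cell cannot be told apart.

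Oxidative phosphorylation passes electrons from NADH through complex I, or from succinate through complex II, to ubiquinone, then through complex III and cytochrome c to complex IV, which reduces oxygen. Complexes I, III and IV pump protons across the inner mitochondrial membrane, and complex V, the ATP synthase, uses their return to make ATP. Luteal cells are rich in mitochondria because the first step of steroid synthesis, the cutting of the cholesterol side chain, takes place there and draws on mitochondrial electron supply. Each complex joins a small catalytic core with many accessory subunits, some of which exist as tissue-specific isoforms from separate genes.

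Because several subunits have close relatives, it matters which transcript a probe reads. Stretches of 30 bases from the 60-base array probes are given for the isoform pairs and for the members that led each complex. Capitals mark AATAAA or ATTAAA, the hexamers that precede the poly(A) tail of many mRNAs; each was searched on both strands, and no match says only that the letters are not in that probe.
COX7A1: cgaacaggcatcAATAAAtgtgctggtttc
COX7A2: ttgtattagctgccaccAATAAAgcagtct
COX6A2: tcaaccctctgcccacgggctacgaaaagc
COX6A1: cacttgaggaccatttcactgatcttccat
COX6A1, second probe: agagatggcttaAATAAAtaatttagtcat
COX6B2: ctttaagcctcaAATAAAgttgtgttactg
COX6B1: agaaggcacgtttcctgggaagatctgaac
NDUFA4L2: ctcccctacttccctcggtccccagggatc
NDUFA4: tcccctctaaatgcacgaaatcacgttggt
ATP5MC1: ctaacctttaccATTAAAcacaatgtttct
ATP5MC2: atgtttcttttcctgtacctccccaggcaa
ATP5MC3: ggtgctgccacagtaggagtggctggttct
NDUFB2: gttttgactttgcacctatggtgattctga
NDUFC1: acgtgagagaaagaattacgtgtgaatata
UQCRFS1: aaaaagccccccATTAAAcattgttatgct
UQCR11: tgtggacacacagcATTAAAcctcactctg
ATP5F1D: cgctaAATAAAcccaggtaaacaagccagc

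Over whole 60-base probes, the longest run shared within an isoform pair was 7 bases for COX6A1 and COX6A2, 7 for COX7A1 and COX7A2, 5 for COX6B1 and COX6B2 and 6 for NDUFA4 and NDUFA4L2. The 3 ATP5MC probes shared at most 8 bases. The probes of a pair therefore have little sequence in common. The 2 probes of COX17 shared only 6 bases, as did the 2 probes of NDUFAB1. Short shared runs therefore do not tell which transcript a probe reads, and no probe was compared with the transcript of a paralogue. At least 1 of the 2 hexamers stood in 24 of the 78 subunit probes (30.8%) and in 16% of the probes of all genes tested, and on the other strand in 6.41% and 7.09%.

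Array brightness overlapped between groups, with 75th percentiles of 3000 to 3558 intensity units on P18 arrays, 2649 to 3773 on P15 arrays and 2868 to 4183 on NP15 arrays, while fewer probes were well above background in P18 (67.5% to 72.6%) than in P15 (75.3% to 80.5%) and NP15 (79.6% to 85.6%). Negative controls had a net signal of 77.3 to 92.9 on P18 arrays, 31.7 to 36.3 on P15 arrays and 34.6 to 38.7 on NP15 arrays. P18 arrays were alone on their slide and scan, so slide and group cannot be told apart in either comparison with P18. P15 and NP15 shared a slide but lay in different rows of it, so in comparisons with NP15 the slide row and the group cannot be told apart. P18 against NP15 also mixes the day with pregnancy. NP15 replicate 4 stood apart from the other arrays for several members, as given with those members. Every member was well above background on all arrays except NDUFAF5, which was on 3 of 4 in NP15, and 72 of the 78 subunits lay in the brightest quintile of genes.

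A subset of the respiratory subunits was higher on day 18 of gestation than on day 15 of the cycle. Limma with Benjamini-Hochberg adjustment over all genes called 26 of the 78 subunits higher in P18 than in NP15 (33.3%) and 1 lower, NDUFA4L2. Over all genes tested, 10.4% were called higher and 18.6% lower. The median change of the subunits was 0.20, with 61 of 78 above 0, against a median of -0.06 for all genes. Among the 2463 genes of the brightest quintile, where most subunits lie, 13.6% were called higher, 8.28% lower, and the median was 0.08. On 26 subunits the 4 P18 arrays all lay above the 4 NP15 arrays, a pattern seen in 11.7% of all genes. Quantile normalization gave 22 subunits higher and 5 lower, and centring each array on its median gave 49 higher and 0 lower. That centring placed the median of all genes at 0.18, so changes relative to it were the same, 0.27 above the median of all genes in both settings. With all genes, the split of calls was 1275 higher and 2286 lower, against 2759 higher and 1325 lower after median centring.

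**Figure D1:**
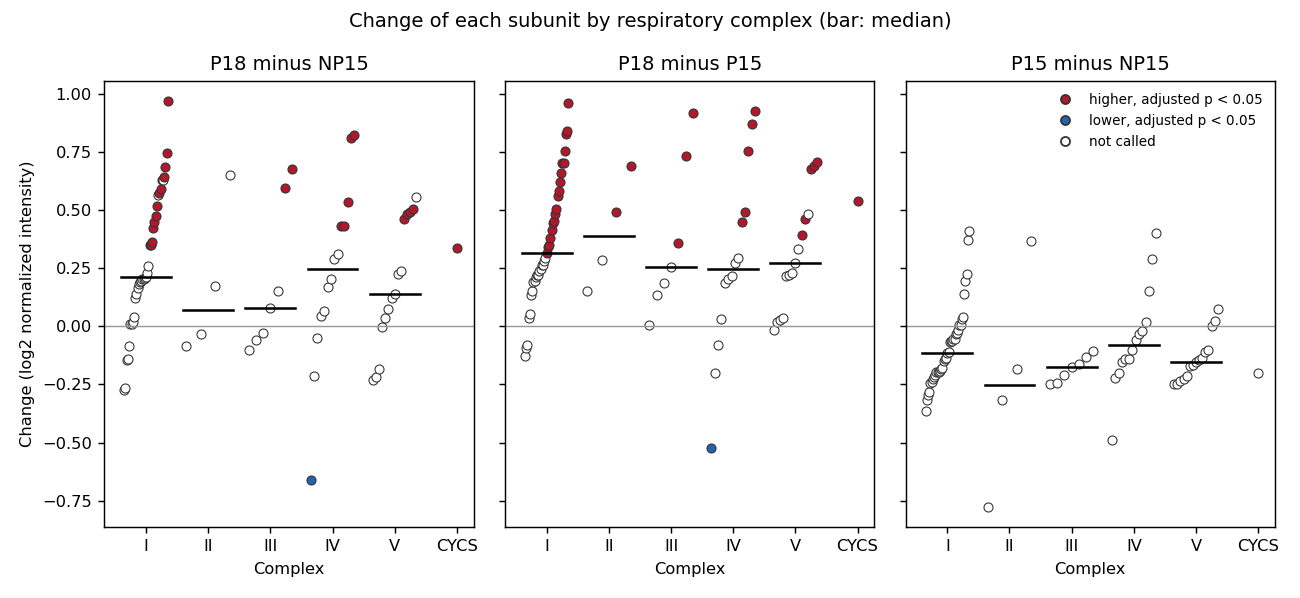
Each point is the log2 change of 1 subunit, grouped by complex on the horizontal axis, for P18 minus NP15, P18 minus P15 and P15 minus NP15. Bars are medians, and filled points passed the adjusted threshold: 26 higher and 1 lower in P18 against NP15, 35 higher and 1 lower in P18 against P15, and none in P15 against NP15.

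Complex I, the NADH dehydrogenase, had 14 of its 37 measured subunits higher in P18 and none lower, with a median change of 0.21. NDUFB2, an accessory subunit of the membrane arm, had levels of 1.59, 1.38, 1.61 and 1.47 on the P18 arrays, 0.61, 0.53, 0.51 and 0.56 on the P15 arrays and 0.55, 0.47, 0.52 and 0.64 on the NP15 arrays. All P18 arrays stood above all others. It was 1.95-fold higher in P18 than in NP15 (log2 change 0.97, SE 0.09, adjusted p = 4.71e-05). NDUFC1, another small membrane-arm subunit, had 3.60, 3.55, 3.36 and 3.52 in P18, against 2.73, 2.69, 2.96 and 2.66 in NP15. The groups did not overlap, and the change was 0.74 (SE 0.10, adjusted p = 0.000467). NDUFB3 averaged 2.35 in P18 and 1.72 in NP15, a change of 0.63, NDUFB6 changed by 0.52 and NDUFB5 by 0.64. These 5 had the smallest p in the complex, and each encodes an accessory subunit of the membrane arm.

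The other 9 complex I subunits that rose were NDUFA1 (0.69), NDUFC2 (0.59), NDUFS6 (0.57), NDUFB1 (0.47), NDUFS5 (0.45), NDUFV3 (0.42), NDUFS4 (0.36), NDUFA8 (0.35) and NDUFB8 (0.35). All 14 are accessory subunits, of 30 measured. Of the 7 core subunits, which carry the flavin and the iron-sulfur clusters, limma called 0, with 1 at an unadjusted p under 0.05. Their median change was 0.20, against 0.29 for accessory subunits, and the difference between core and accessory subunits was not tested. NDUFS7, a core subunit, shows how 1 array sets the spread: NP15 replicate 4 was at 1.02 and the other NP15 arrays at 3.19 to 3.38. NDUFAB1, the mitochondrial acyl carrier protein, was at 3.46 on that array against 5.47 to 5.64 on the other NP15 arrays, a gap its second probe did not show (3.88 against 3.60 to 3.77).

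Complex II, succinate dehydrogenase, also works in the citric acid cycle, and none of its 4 subunits was called between P18 and NP15, nor had any an unadjusted p under 0.05. SDHA, the flavoprotein, averaged 5.70 ± 0.11 in P18 and 5.74 ± 0.10 in NP15 (SD, n = 4 each), a change of -0.03 with a 95% interval of -0.24 to 0.18. SDHB, the iron-sulfur subunit, changed by 0.17 (interval -0.10 to 0.45) and by 0.28 (adjusted p = 0.0497) without NP15 replicate 4. SDHC, a membrane anchor, had 4.55, 4.32, 4.63 and 4.73 in P18, against 4.51, 4.19, 4.26 and 2.66 in NP15. NP15 replicate 4 is the low one, and the change of 0.65 (adjusted p = 0.157) was 0.24 (adjusted p = 0.147) without that array. SDHD, the other anchor, changed by -0.08 (interval -0.48 to 0.31).

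Complex III had 2 of 7 subunits higher in P18 and a median change of 0.08. UQCRFS1 encodes the Rieske iron-sulfur protein, which takes electrons from ubiquinol. Its levels were 2.58, 2.72, 2.71 and 2.74 in P18, 1.58, 1.83, 1.81 and 1.86 in P15 and 2.10, 2.07, 1.91 and 1.96 in NP15. P18 stood above both other groups, 1.60-fold over NP15 (log2 0.67, SE 0.10, adjusted p = 0.000554). UQCR11, a small accessory subunit, changed by 0.60 (SE 0.11, adjusted p = 0.00282). CYC1, cytochrome c1, averaged 5.22 in P18 and 5.24 in NP15, a change of -0.03 with an interval of -0.25 to 0.19. The large core proteins UQCRC1 and UQCRC2 had changes of -0.06 and -0.10, both with overlapping groups. CYCS, cytochrome c, the soluble carrier from complex III to complex IV, rose by 0.34 (SE 0.11, adjusted p = 0.0344), a call that ended under quantile normalization (0.15, adjusted p = 0.338) and when any 1 of 6 arrays was left out.

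Complex IV, cytochrome c oxidase, had 5 of 14 subunits higher and 1 lower in P18 than in NP15, with a median change of 0.25. COX7A2 changed by 0.81 (SE 0.12, adjusted p = 0.000559) and COX8A by 0.53 (SE 0.11, adjusted p = 0.00405). The array describes the COX8A probe as the heart form of subunit VIII, and the symbol came through its accession. COX7C, with a probe in array row 3, changed by 0.43, and by 0.12 (adjusted p = 0.36) once the local trend over neighbouring rows was subtracted. COX4I1, the largest nuclear-encoded subunit, had a change of 0.04 with overlapping groups.

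Complex V had 4 of 15 subunits higher in P18 and a median change of 0.14. ATP5MG, subunit g of the membrane sector, had 4.82, 4.80, 4.91 and 4.83 in P18, against 4.33, 4.34, 4.29 and 4.47 in NP15, a change of 0.48 (SE 0.08, adjusted p = 0.00132). ATP5F1D, the delta subunit of the central stalk, had 2.06, 2.06, 2.03 and 1.92 in P18, against 1.45, 1.56, 1.32 and 1.72 in NP15. Neither gene's groups overlapped, and ATP5F1D changed by 0.51 (SE 0.10, adjusted p = 0.00417). ATP5F1E, the epsilon subunit of the same stalk, changed by 0.46, and by 0.32 (adjusted p = 0.0686) after the position adjustment. The catalytic and stalk subunits ATP5F1A, ATP5F1B and ATP5F1C, which are alpha, beta and gamma, had changes of 0.04, -0.22 and -0.23, and none was called. ATP5PF, a peripheral-stalk subunit, changed by 0.56 (adjusted p = 0.0597), and by 0.31 (adjusted p = 0.0251) without NP15 replicate 4, which was at 2.86 while the other NP15 arrays were at 3.73 to 3.92.

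**Figure D2:**
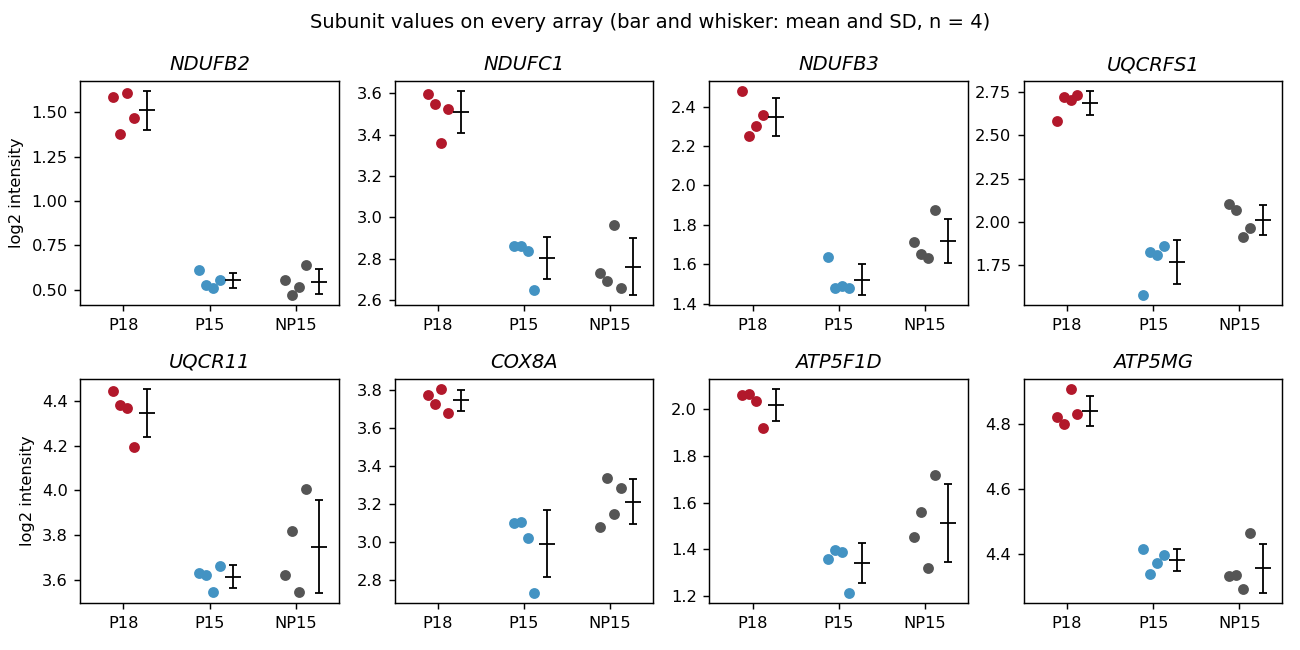
Levels (log2 intensity relative to the array's 75th percentile) of 8 subunits on every array, P18 left, P15 in the middle and NP15 right, with mean and SD of 4 arrays beside the points. In each panel the 4 P18 points lie above the points of both other groups.

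Against P15, cows sampled 3 days earlier in gestation, P18 had more subunits called: 35 of 78 higher (44.9%) and again NDUFA4L2 lower. Of all genes, 12.8% were called higher and 15.5% lower. The median change was 0.29, with 71 of 78 subunits above 0, against -0.03 for all genes and 0.10 for the brightest quintile, in which 17.05% were called higher. On 49 subunits all P18 arrays lay above all P15 arrays, which held for 16.1% of all genes. After median centring 60 subunits were called higher and 0 lower, and the split over all genes was 3067 higher and 1144 lower, against 1578 and 1907 as reported. P18 is shared with the comparison against NP15, so the counts are not independent of it. The counts use the brightest probe of each gene. NDUFAB1 and ATP5PB were not called against P15 by that probe (0.22 and 0.27). Their second probes passed the threshold in limma, at 0.52 (adjusted p = 0.0047) and 0.34 (adjusted p = 0.0123). The second probe of COX6A1 did not (0.01).

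In complex I 19 of 37 subunits were higher in P18 than in P15, with a median of 0.32. NDUFB2 changed by 0.96, NDUFB3 by 0.83, NDUFB1 by 0.84, NDUFB5 by 0.75 and NDUFB6 by 0.58, the 5 with the smallest p. NDUFB1, one of the smallest membrane-arm subunits, had 4.00, 3.75, 3.84 and 3.76 in P18, against 3.12, 2.98, 2.94 and 2.97 in P15. Here core subunits passed the threshold too, among them NDUFS3 (0.45) and NDUFV1 (0.45), which binds NADH. Of accessory subunits 16 of 30 did.

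Complex II had 2 of 4 subunits higher in P18 than in P15. SDHD had 2.40, 2.37, 2.34 and 2.12 in P18, against 1.45, 1.82, 1.68 and 1.53 in P15, a change of 0.69 (SE 0.18, adjusted p = 0.0156). SDHB had 1.27, 1.37, 1.12 and 1.26 in P18, against 0.58, 0.82, 0.81 and 0.84 in P15, a change of 0.49 (SE 0.12, adjusted p = 0.0124). The groups were separate for both genes, but after the position adjustment SDHD was at 0.40 (adjusted p = 0.0992) and SDHB at 0.34 (adjusted p = 0.106). SDHA changed by 0.15 (interval -0.06 to 0.36) and SDHC by 0.28 (interval -0.43 to 0.99).

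In complex III 3 of 7 subunits were higher in P18 than in P15: UQCRFS1 (0.92, SE 0.10, adjusted p = 0.000116), UQCR11 (0.73) and UQCR10 (0.36), a small subunit. CYC1 changed by 0.13 (interval -0.08 to 0.35) and CYCS by 0.54 (SE 0.11, adjusted p = 0.00357). Complex IV had 5 subunits higher, COX6A2, COX7A2, COX8A, COX5A and NDUFA4, with COX7A2 at 0.87 and COX8A at 0.75. Complex V had 5 of 15 higher: ATP5MC1 (0.70), ATP5F1E (0.69), ATP5F1D (0.68), ATP5MG (0.46) and ATP5MK (0.39). ATP5F1A, ATP5F1B and ATP5F1C had changes of 0.03, 0.03 and 0.02.

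**Figure D3:**
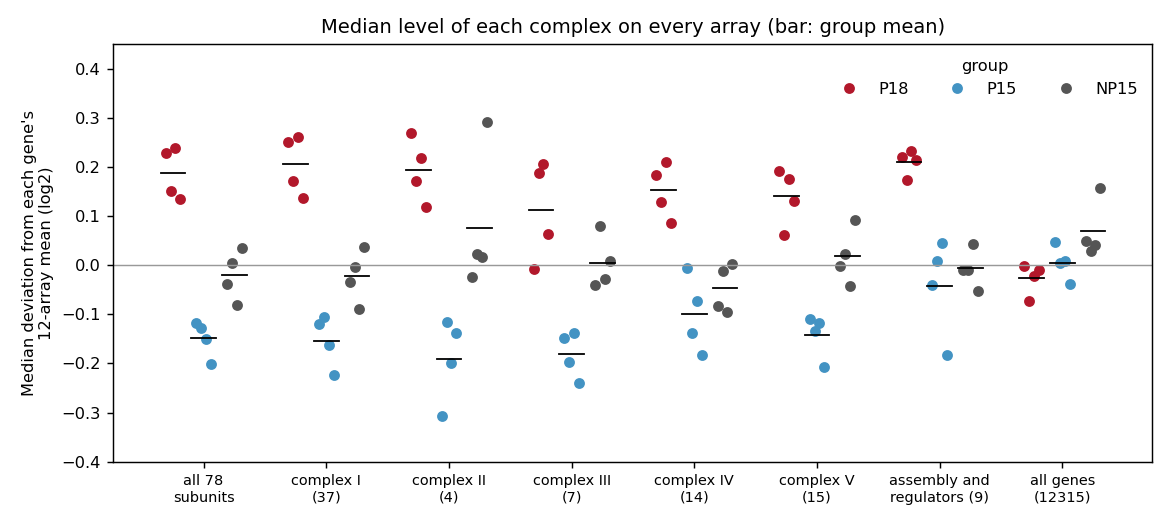
Median deviation of each complex's subunits from each gene's mean over the 12 arrays (log2), 1 point per array, in P18, P15 and NP15 from left to right, with bars at group means. Over all 78 subunits the P18 arrays lie between 0.13 and 0.24, the P15 arrays between -0.20 and -0.12 and the NP15 arrays between -0.08 and 0.04.

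Within day 15, P15 against NP15, limma called 0 of 78 subunits in either direction, with 1 higher and 16 lower at an unadjusted p under 0.05, against 293 higher and 785 lower of all 12315 genes. Of all genes, 0.414% were called higher and 0.593% lower. The median change of the subunits was -0.14, with 61 of 78 below 0, against -0.06 for all genes, and after the position adjustment it was -0.07 against -0.01. On the plot of medians by array, the P15 arrays were all below the NP15 arrays for the 78 subunits together. All 7 complex III subunits were below 0, from -0.25 to -0.11. NDUFB1 changed by -0.36 (adjusted p = 0.16) and NDUFB4 by -0.32 (adjusted p = 0.28), both with P15 arrays all below NP15 arrays. SDHD changed by -0.77 (SE 0.18, adjusted p = 0.0918), and by -0.97 (adjusted p = 0.00505) without NP15 replicate 1, which was at 1.80 while the other NP15 arrays were at 2.54 to 2.66. SDHC changed by 0.37, and by -0.046 without NP15 replicate 4, so its sign turned with that array. SDHA and SDHB changed by -0.18 and -0.32, CYC1 by -0.16 and CYCS by -0.20, all with an adjusted p of at least 0.458.

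In no pair of isoforms were both partners called higher in P18 than in NP15, and differences between partners were not tested. COX6A2, the isoform of heart and skeletal muscle, was a dim probe with levels of -5.23, -5.24, -4.73 and -5.34 in P18, -5.53, -6.10, -6.24 and -6.37 in P15 and -5.82, -5.90, -6.32 and -5.79 in NP15. P18 stood above both groups, by 0.82 over NP15 (SE 0.20, adjusted p = 0.01175) and 0.93 over P15. COX6A1, the widely expressed isoform, had 6.24, 6.15, 6.27 and 6.23 in P18, against 6.21, 6.09, 6.25 and 6.54 in NP15. Its change was -0.05 (interval -0.29 to 0.18), and its second probe gave -0.10. Of 5 striated muscle markers, 4 passed the filter, and 2 of these were well above background on at least 3 P18 arrays. Their summed linear level was 0.0989 to 0.114 in P18, 0.0765 to 0.0987 in P15 and 0.0871 to 0.149 in NP15, so that P18 lay above P15 and overlapped NP15. TNNT3, a fast skeletal troponin, was called higher in P18 than in NP15 (adjusted p = 0.0173) and P15 (adjusted p = 0.0214), and was well above background on 2 P18, 3 P15 and 3 NP15 arrays. ACTA1, skeletal actin, was called lower than in P15 (adjusted p = 0.0479), and was well above background on 1 P18 array. The part of muscle cells or of the raised negative-control signal in the COX6A2 value was not tested.

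In the COX7A pair the widely expressed form was called higher. COX7A2 had 5.35, 5.15, 5.26 and 4.96 in P18, 4.47, 4.37, 4.22 and 4.19 in P15 and 4.30, 4.34, 4.30 and 4.55 in NP15. COX7A1, the muscle-type form, had 3.07, 3.32, 3.27 and 2.84 in P18, against 2.74, 2.94, 2.60 and 2.96 in NP15, with overlapping groups and a change of 0.31 (interval 0.02 to 0.60, adjusted p = 0.101). COX6B1 and its testis-type paralogue COX6B2 changed by 0.17 and 0.20, neither called, with intervals of -0.18 to 0.52 and -0.09 to 0.50.

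NDUFA4, first assigned to complex I and now placed in complex IV, and NDUFA4L2, its paralogue known from human cells as a gene induced in low oxygen, went opposite ways in P18. NDUFA4 had 5.78, 5.56, 5.73 and 5.80 in P18, against 5.36, 5.53, 5.33 and 4.93 in NP15, a change of 0.43 (SE 0.13, adjusted p = 0.034). NDUFA4L2 had -0.82, -0.68, -1.40 and -0.94 in P18, -0.34, -0.72, -0.28 and -0.41 in P15 and -0.37, -0.35, -0.43 and -0.03 in NP15. All P18 arrays were below all NP15 arrays, while 1 P15 array overlapped with P18. The change of NDUFA4L2 was -0.66 against NP15 (SE 0.17, adjusted p = 0.0124) and -0.52 against P15 (adjusted p = 0.0367). After median centring these were -0.42 (adjusted p = 0.0668) and -0.29 (adjusted p = 0.186), and NDUFA4 was at 0.24 (adjusted p = 0.112) against NP15 after the position adjustment. The NDUFA4 call against NP15 and the NDUFA4L2 call against P15 were each lost when any 1 of 5 arrays was left out.

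The 3 ATP5MC genes encode the same mature c subunit of the rotor ring with different import sequences. ATP5MC1 had 4.50, 4.49, 4.53 and 4.46 in P18, 3.77, 3.90, 3.90 and 3.58 in P15 and 4.06, 3.93, 3.82 and 4.20 in NP15. It was higher in P18 by 0.49 over NP15 (SE 0.11, adjusted p = 0.00699) and by 0.70 over P15. ATP5MC2 changed by 0.22 (interval -0.04 to 0.48) and ATP5MC3 by -0.18 (interval -0.41 to 0.05) against NP15, neither called.

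**Figure D4:**
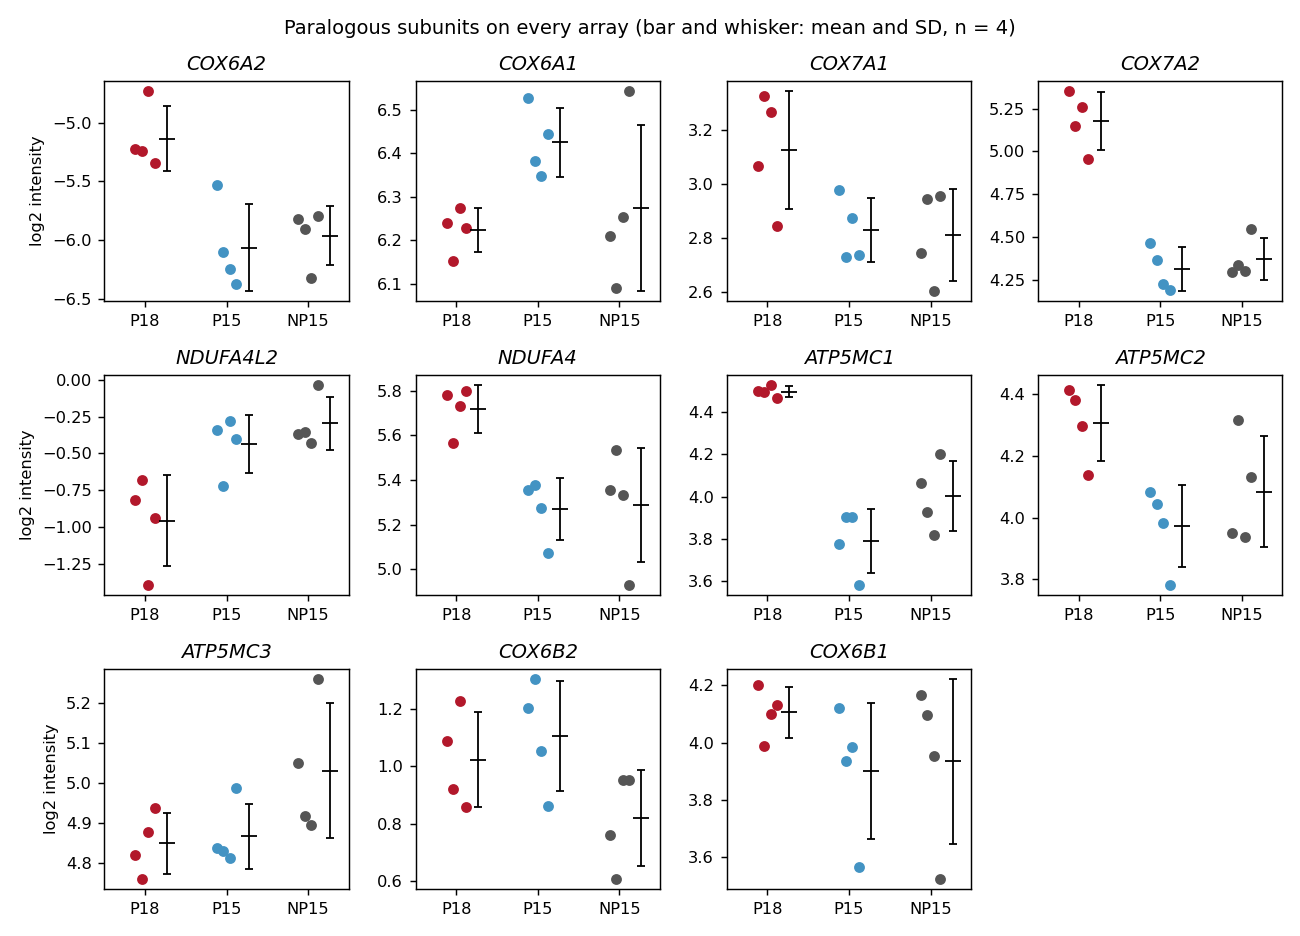
Levels (log2 intensity relative to the array's 75th percentile) of paralogous subunits on every array in P18, P15 and NP15 from left to right, with mean and SD of 4 arrays; each panel has its own axis. COX6A2, COX7A2, NDUFA4 and ATP5MC1 are higher in P18 than in both other groups, and NDUFA4L2 is lower than in NP15 with 1 P15 array overlapping, while COX6A1, COX7A1, COX6B1, COX6B2, ATP5MC2 and ATP5MC3 overlap between P18 and NP15.

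Among the 9 assembly factors and regulators, 4 were higher and 1 lower in P18 than in NP15 (all genes 10.4% and 18.6%). COX17, the copper chaperone of cytochrome c oxidase, had 3.94, 3.87, 3.93 and 3.86 in P18, 3.74, 3.55, 3.55 and 3.46 in P15 and 2.95, 2.67, 2.62 and 3.27 in NP15. The 3 groups were separate, with P18 above NP15 by 1.03 (SE 0.14, adjusted p = 0.000424). COX17 was the only member called between P15 and NP15 (0.70, adjusted p = 0.0441), and that call ended in each of 11 fits that left out 1 array. Its probe lies in array row 2, at the edge. A second COX17 probe in row 84 was higher by 1.12 in P18 than in NP15 (adjusted p = 0.000158). Against P15 it was higher in P18 by 1.19 (adjusted p = 0.00014 from limma), where the probe in row 2 changed by 0.33 and was not called. Between P15 and NP15 the second probe differed by -0.07. It was dim, with mean levels of -4.53 in P18 and -5.65 in NP15. The strand it reads was not tested, nor was the part of the raised negative-control signal of P18 arrays in its value. COX20, an assembly factor for the COX2 subunit, fell to -2.48, -2.56, -3.05 and -2.31 in P18, against -1.81, -1.55, -1.35 and -1.66 in NP15 (log2 change -1.01, SE 0.16, adjusted p = 0.0011), and was lower than in P15 by 2.10-fold.

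SDHAF3, an assembly factor of complex II, changed by 0.45 (adjusted p = 0.0346) and lost its call when any 1 of 5 arrays was left out. DMAC2L, listed on the array as ATP5S, changed by 1.202 (adjusted p = 0.0436), a call lost when any 1 of 8 other arrays was left out, and by 0.68 (adjusted p = 0.00212) without NP15 replicate 4, which was at -2.89 while the others were at -0.82 to -0.73. COX16 changed by 0.24 (adjusted p = 0.0453), a call lost when any 1 of 11 arrays was left out. Not called were NDUFAF5 (0.56), COX14 (0.03), COX15 (0.27) and ATP5IF1 (0.42), which inhibits ATP hydrolysis by complex V. Without NP15 replicate 4, NDUFAF5 (at -7.74 there) changed by -0.74 (adjusted p = 0.00331) and ATP5IF1 (at 2.95 there) by 0.0185. Against P15, COX16 (0.46) and COX15 (0.33) were called higher in P18 and COX20 lower, and the COX15 call was lost when any 1 of 8 arrays was left out. DMAC2L and COX16 were named after their values were seen. Of the 27 subunits called in P18 against NP15, 19 were called under every alternative that gave a value. The others were NDUFB8, NDUFS4, NDUFV3, COX7C, NDUFA4, NDUFA4L2, ATP5F1E and CYCS. In P18 against P15 it was 23 of 36, the others including NDUFA3, NDUFA8, NDUFB4, NDUFS6, NDUFV1, SDHB, SDHD, UQCR10, COX5A, NDUFA4, NDUFA4L2 and ATP5MK. With 1 array left out, calls against NP15 were lost for NDUFB8 in 9 of 12 such fits and for NDUFV3 in 3, and calls against P15 for NDUFA3 in 7, NDUFS6 in 7, ATP5MK in 6 and NDUFA4 in 5. NDUFA13 was at 0.01 against NP15, and at -0.35 (adjusted p = 0.0324) without NP15 replicate 4.

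Among complex I subunits, lower mass went with a larger change. The array descriptions give a mass for 34 of the 37 subunits, and across these Spearman's rho between mass and change was -0.57 in P18 against NP15 and -0.48 in P18 against P15. Below 15 kDa, 8 of 15 subunits were called higher in P18 than in NP15 (median 0.47), and from 15 kDa up 6 of 19 (median 0.20). In P18 against P15 the counts were 9 of 15 (median 0.378) and 10 of 19 (median 0.315), so there the medians were closer. The boundary was chosen after the values were seen, the subunits share the same 12 arrays, and no test was made. Base composition moved with the changes too: across the 78 subunits rho between probe GC content and change was -0.39 in P18 against NP15 and -0.44 in P18 against P15, and across all genes -0.08 and -0.04. In P18 against NP15, subunits with a hexamer in the probe had a median change of 0.35 (11 of 24 called higher), against 0.18 (15 of 54) without one. In P18 against P15 the medians were closer, 0.34 (11 of 24) with a hexamer and 0.28 (24 of 54) without one. The parts of mass, GC content and probe position in the transcript were not tested.

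**Figure D5:**
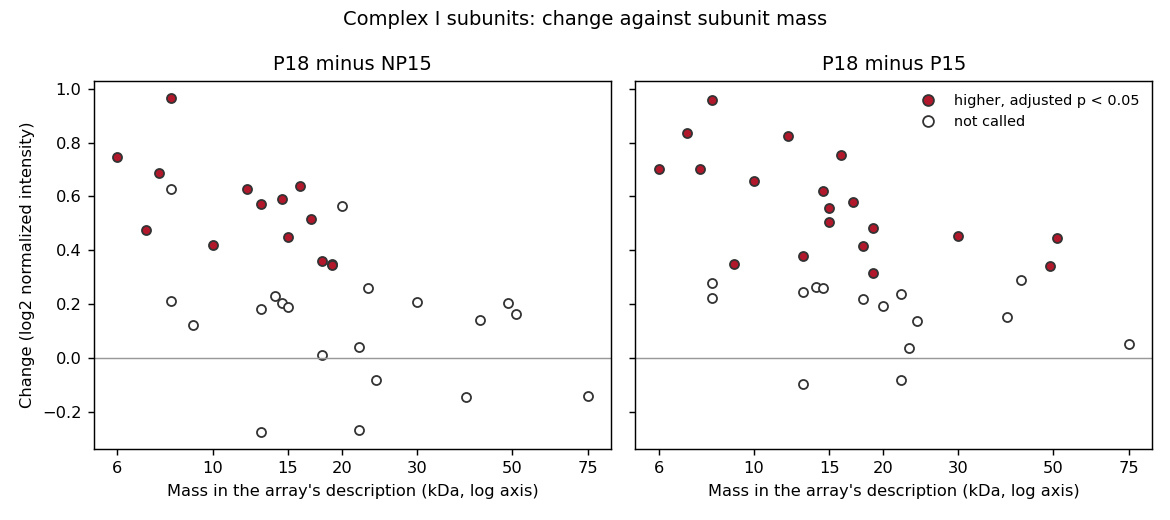
Change of each of 34 complex I subunits (log2, vertical) against its mass in kDa (log axis), for P18 minus NP15 left and P18 minus P15 right; filled points were called higher. Of the 15 subunits below 15 kDa, 8 were called higher against NP15, and of the 19 heavier ones 6 were.

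Calls were also counted by position on the array. In the first and last 24 of the 192 rows lay 21 of the 78 subunits, and 10 of these were called higher in P18 than in NP15 (all genes there 12.2%), against 16 of 57 in the inner rows (all genes there 9.73%). In P18 against P15 it was 12 of 21 in outer rows (all genes 14.95%) and 23 of 57 in inner rows (12.11%). The first and last 24 rows were also counted apart. In P18 against NP15, 7 of 11 were called higher in the first rows (median 0.43) and 3 of 10 in the last (0.046). In P18 against P15 it was 6 of 11 (median 0.315) and 6 of 10 (0.43). In P15 against NP15 the medians were 0.02 in the first rows and -0.27 in the last. All genes were counted only for both edges together, so no share or median of all genes stands beside the first or the last rows. Whether the difference between first and last rows is particular to the subunits was not tested, nor was its cause. Inner-row medians were 0.20 in P18 against NP15 and 0.28 in P18 against P15, close to 0.20 and 0.29 over all subunits.

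Other mitochondrial genes were followed in 5 lists, beside 10.4% of all genes called higher in P18 than in NP15 and 18.6% called lower. Of 15 measured genes of the citric acid cycle, 1 was higher in P18 than in NP15 and 2 were lower, with a median of -0.06. CS, citrate synthase, changed by -0.87 (adjusted p = 0.00103), DLST, the succinyltransferase of the oxoglutarate dehydrogenase complex, by -1.60 (adjusted p = 0.000249), and SUCLG2, a subunit of succinyl-CoA ligase, by 0.40 (adjusted p = 0.0454), a call lost under 5 of the settings that kept all arrays and when any 1 of 9 arrays was left out. Of 14 carriers and membrane genes, SLC25A4, an ADP/ATP carrier, was higher (0.91, adjusted p = 0.034) and IMMT, a cristae-organising protein, lower (-1.70, adjusted p = 1.41e-05). Of 8 biogenesis regulators 2 were higher, SSBP1, the mitochondrial DNA-binding protein (0.70), and NFE2L2, a transcription factor of oxidative stress (0.63). GPX4, which reduces lipid peroxides, was the 1 of 6 defence genes called (0.44, adjusted p = 0.0167), and was at 0.30 (adjusted p = 0.11) after the position adjustment. Of 12 further assembly factors, HIGD2A (0.89) and COA1 (0.56) were higher and FOXRED1 (-1.0001) and ATPAF2 (-0.51), the last named after its value was seen, were lower. SSBP1 and HIGD2A had dim probes, with mean levels of -4.51 and -4.01 in P18 and -5.20 and -4.90 in NP15. The part of the raised negative-control signal of P18 arrays in their values was not tested. The FOXRED1 call was lost under median centring, with 2 groups alone, with the replicate block and when any 1 of 7 arrays was left out. FOXRED1 was at -1.15 on P18 replicate 1 and at 0.14 to 0.53 on the other P18 arrays, and without that array its change was -0.61 (adjusted p = 0.032). The SLC25A4 call was lost with 2 groups alone and when any 1 of the 4 P18 arrays was left out. SLC25A4 was at -1.04 on NP15 replicate 4 and at 0.30 to 0.57 on the other NP15 arrays, and without that array its change was 0.55 (adjusted p = 0.00445).

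Against P15, P18 had 2 citric acid cycle genes higher and 2 lower, and 1 carrier or membrane gene higher and 1 lower. Higher too were 2 biogenesis regulators, 2 defence genes and 2 further assembly factors. The shares of all genes in that comparison were 12.8% higher and 15.5% lower. SSBP1 changed by 0.91 (adjusted p = 0.000235), IMMT by -1.59 (adjusted p = 1.955e-05), and CS by -0.48 (adjusted p = 0.0243), a call lost after quantile normalization, median centring and normexp correction, and when any 1 of 4 arrays was left out. In P15 against NP15, limma called 0 genes of these 5 lists. At an unadjusted p under 0.05, 5 citric acid cycle genes, 2 further assembly factors, 1 carrier and 1 defence gene were lower and 0 were higher.

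Markers of the cells in the gland also differed in level between groups. Their counts stand beside 10.4% of all genes called higher in P18 than in NP15 and 18.6% called lower. All 10 markers of luteal steroidogenic cells were measured. Their summed linear level was 395.5 to 496.3 in P18, 436.1 to 557.5 in P15 and 563.8 to 701.3 in NP15, with 4 of 10 lower in P18 than in NP15. A linear sum gives most weight to the brightest probes. In P15 against NP15, 5 of the 10 markers were above 0 and 5 below, with a median change of -0.03. The 1 that limma called there was HSD3B1 (-1.47, adjusted p = 0.00087), with a probe in array row 192, at the edge. STAR and HSD3B1, the brightest markers of this list in NP15, had the same level as each other on NP15 replicates 1, 3 and 4 (7.55, 7.60 and 7.83). Saturated probes numbered 3 to 7 on NP15 arrays, 2 to 6 on P15 arrays and 0 on P18 arrays. The part of saturation in these sums was not tested. Of 7 measured fibroblast, pericyte and smooth muscle markers 4 were lower in P18 than in NP15, and the sums were 65.2 to 82.6 in P18, 88.2 to 100.9 in P15 and 88.4 to 99.1 in NP15. Of 7 endothelial markers 3 were lower in P18 than in NP15. These were CDH5, PECAM1 and VWF, dim probes with mean levels of -3.22, -3.26 and -5.03 in NP15. The sums were 6.81 to 8.16 in P18, 8.90 to 10.95 in P15 and 6.75 to 10.2 in NP15, so that P18 lay below P15 and overlapped NP15. They rested mostly on ENG, in array row 3, which averaged 2.44 in NP15 and was not called against NP15 (-0.12). The sums and the calls therefore describe different probes. Leukocyte markers summed to 1.27 to 3.30 in P18, 0.94 to 2.24 in P15 and 1.06 to 2.13 in NP15. Of these 7 markers, 5 were well above background on at least 3 P18 arrays. Against NP15, CD2 was the 1 called higher in P18 and PTPRC the 1 called lower. PTPRC was well above background on 0 P18, 4 P15 and 4 NP15 arrays, so it passed the filter only through the day 15 groups. Of 2 measured red blood cell markers, ALAS2, the erythroid enzyme of haem synthesis, was higher in P18 than in NP15 (0.49, adjusted p = 0.015) and P15 (0.54, adjusted p = 0.00971), while the haemoglobin probe HBA was well above background on 1 P18, 0 P15 and 3 NP15 arrays. Their sums were 0.472 to 0.686 in P18, 0.350 to 0.396 in P15 and 0.354 to 0.445 in NP15. The 5 granulosa cell markers summed to 4.83 to 7.21 in P18, 9.06 to 15.2 in P15 and 7.14 to 10.1 in NP15, with 0 of 5 called by limma in either comparison, and with 0 at an unadjusted p under 0.05 against NP15 and 1 lower against P15. The part of these cell types in the subunit changes was not tested.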

How the data were processed

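The scanner output gives linear spot intensities, which the authors extracted using Agilent Feature Extraction 9.5, according to the submitters' processing notes; per the file headers the processed signal is background-corrected and detrended. The deposited value table holds log2 values of the same arrays, and was used as an alternative. The marks for well above background, saturation and outlier spots were used as deposited, per the file headers.

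Here control spots were dropped, log2 was taken, the 75th percentile of each array was subtracted, and marked spots were set to missing. No member was saturated or missing on any array. Probes well above background on at least 3 of 4 arrays of a group were kept (12605), and the brightest probe stood for each gene (12315). Names came from accessions, gene numbers, symbols or descriptions through a RefSeq table (assembly ARS-UCD2.0); 8071 probes were not matched. Groups were compared in 1 limma 3.58.1 fit (R 4.3.3) over all 12 arrays, two-sided, with Benjamini-Hochberg adjustment over all genes and a threshold of 0.05. The fit was tested on simulated data. Animals are the replicates, and their number limits the precision.

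Members and lists were chosen with earlier results of these data known. The text names, per comparison, up to 5 called subunits of each complex with the smallest p, called subunits that went against their complex, all SDH subunits, the isoform pairs, CYCS, CYC1 and the 3 smallest p of each other list; other members are named to complete a count. Levels of the members of a complex were not ranked, so the brightest and dimmest members that the rule also listed are not given. Marker sums, signal quintiles and the words dim and bright do set levels of different probes side by side. Alternatives were quantile normalization, median centring, normexp correction, the deposited table, other filters and probe rules, marked spots kept, 2 groups alone, a replicate block, array weights, a position adjustment, inner rows only and each array left out. Promoter and protein sequences were not used here. The values of 1 member are not reported here.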

Additional observations from a re-analysis of the deposited data

Results flagged for a closer look

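Single arrays stood apart from the other 3 of their group by Dixon's test in 29 of 261 sets of values (87 members in 3 groups), of which chance gives about 1 in 20. By group it was 4 of 87 members in P18, 14 in P15 and 11 in NP15. P15 replicate 4 stood low for 6 members and high for 1. NP15 replicate 4 was the array standing low for 7 members and high for 2. It was low for NDUFAF5 at -7.74 (the other NP15 arrays -2.64 to -2.33), NDUFA13 at 3.89 (5.30 to 5.39), NDUFAB1 at 3.46 (5.47 to 5.64), NDUFS7 at 1.02 (3.19 to 3.38), ATP5IF1 at 2.95 (4.51 to 4.70) and DMAC2L at -2.89 (-0.82 to -0.73), and high for COX7A2 at 4.55 (4.30 to 4.34). On the same array the median of the complex II subunits was high at 0.29 (-0.02 to 0.02), as was the median of all genes tested at 0.16 (0.03 to 0.05). The other NP15 arrays that stood apart were replicate 1 for SDHD at 1.80 (2.54 to 2.66) and replicate 2 for NDUFB6 at 3.14 (3.07 to 3.08).

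In P15 the sets were NDUFB3 on replicate 1 at 1.64 (1.48 to 1.49), ATP5MK on replicate 1 at -0.37 (-0.47 to -0.46), SDHB on replicate 1 at 0.58 (0.81 to 0.84), COX20 on replicate 2 at -1.75 (-1.49 to -1.44), NDUFC1 on replicate 4 at 2.65 (2.84 to 2.86) and ATP5MC3 on replicate 4 at 4.99 (4.81 to 4.84). These are the named members and those with a gap over 1 log2 unit.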

How the results depend on the processing

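Over the alternatives that kept all arrays, the median change of the subunits kept its sign in each comparison: 0.13 to 0.44 in P18 against NP15 (0.20 as reported), 0.18 to 0.51 in P18 against P15 (0.29) and -0.14 to -0.07 in P15 against NP15 (-0.14). Quantile normalization gave medians of 0.14 in P18 against NP15, with 5 subunits lower, and 0.19 in P18 against P15. Median centring gave medians of 0.44 and 0.51 with 49 and 60 subunits higher and 0 lower in both. The position adjustment gave medians of 0.13, 0.18 and, in P15 against NP15, -0.066, with 3 subunits lower in P18 than in NP15 and 2 lower than in P15. Inner rows alone, with fewer genes tested, left 16 subunits higher in P18 than in NP15 and 23 higher than in P15. Array weights gave 2 subunits lower in P18 than in NP15 and 1 higher in P15 than in NP15. With 2 groups alone, 0 subunits were lower in P18 than in P15. The cause of these differences was not tested. Over all genes, 1275 were higher and 2286 lower in P18 than in NP15, against 2759 and 1325 after median centring, 1859 and 1481 after normexp correction and 3011 and 2357 with no filter. In P18 against P15 it was 1578 and 1907, against 3067 and 1144, 1887 and 1233, and 3324 and 1973. In P15 against NP15 it was 51 and 73, against 0 and 0 in inner rows alone, 25 and 14 after the position adjustment, 27 and 31 with 2 groups alone, 35 and 36 with the replicate block, 90 and 117 with array weights, 44 and 30 after normexp correction, 46 and 38 for probes above background on all arrays, and 31 to 49 and 31 to 69 with 1 array left out. In P18 against NP15, 22 of 32 named genes that were called kept the call in every setting that gave a value. In P18 against P15 it was 22 of 36, and in P15 against NP15 it was 0 of 1.

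With 1 array left out, P18 against NP15 had 22 to 32 subunits higher, 1 to 3 lower (3 without NP15 replicate 4, 2 without P18 replicate 1) and a median of 0.17 to 0.23. P18 against P15 had 31 to 42 higher, 0 to 1 lower and a median of 0.28 to 0.33; the count of lower subunits was 0 without P18 replicate 3 or 4 and without P15 replicate 1, 3 or 4. P15 against NP15 had 0 higher, 0 to 1 lower (1 without NP15 replicate 1, SDHD) and a median of -0.18 to -0.13.

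The labels do not say that a replicate number pairs cows. Same-numbered arrays had correlations of deviations from group means of 0.118, 0.164, 0.0974 and 0.294 for P15 with NP15, -0.0433 to 0.174 for P18 with NP15 and -0.0287 to 0.147 for P18 with P15, so the numbers were not taken as pairs. With the replicate block, 2 subunits were lower in P18 than in NP15 and 0 in P18 than in P15, and 0 were called in P15 against NP15. NDUFAF5 was not well above background on 1 NP15 array, and the other members were on all 12.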

Other observations

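Probes described as respiratory subunits but carrying no gene symbol were left out of the members. Of these, the probe described as similar to the complex III protein of 11 kDa was higher in P18, with levels of -1.64, -1.73, -1.64 and -1.69, against -2.55, -2.37, -2.28 and -3.01 in NP15 (a change of 0.88, SE 0.15, adjusted p = 0.0014 from limma). The probe described as similar to cytochrome c oxidase polypeptide VIc-2 changed by 0.42 (adjusted p = 0.0439). The probe described as similar to subunit VIIa polypeptide 2 like changed the other way, by -0.54 (SE 0.17, adjusted p = 0.0359), with 0.89, 0.81, 0.74 and 1.46 in P18, against 1.62, 1.35, 1.72 and 1.38 in NP15, so that the groups overlapped in 1 P18 array. The probe described as similar to the complex III binding protein changed by 0.86 (adjusted p = 0.0884). For it, NP15 replicate 4 was at 1.83 and the other NP15 arrays at 3.53 to 3.70. A probe described as similar to the ATP synthase F1 complex was flat, with a change of 0.03 (adjusted p = 0.879 from limma). Another, described as the ATP synthase alpha subunit, was well above background on 0 arrays of each group.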
